A study of Mus musculus with 16 samples.

Results

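The 10 genes described here encode the transcription factors of the NR4A family (Nr4a1, Nr4a2, Nr4a3), the EGR family (Egr1, Egr2, Egr3) and the AP-1 family (Fos, Fosl2, Jun, Junb). They were taken by name from the 26089 genes with curated RefSeq transcripts on the chromosomes that carried peaks. Peaks of 12 ChIP-seq libraries were then laid over each gene body extended by 30 kb on either side, 711.4 kb in all. The cells were CD8+ T cells from the spleens of OT1 mice, in which a transgenic T cell receptor recognises an ovalbumin peptide. They were stimulated for 48 h through CD3 and CD28 with IL-2 and expanded in IL-2 for 3 days, and no restimulation before fixation is described. One group received GSK2879552 (GSK) at 0.5 μM during activation and expansion, a compound that inactivates the demethylase LSD1 irreversibly, and the other received vehicle (Veh) in its place. Each treatment had 1 library for each of 6 antibodies. They were raised against RNA polymerase II (Pol II), against LSD1 itself, and against the histone marks H3K27ac, H3K4me1, H3K4me2 and H3K4me3. There were thus no replicates, so no difference could be set against replicate error, and no p-value is given. The lists give no reads, but by the study's own read totals, which were not used here, depth differed between treatments. The H3K27ac library was much deeper in Veh than in GSK cells, those for H3K4me2 and LSD1 were somewhat deeper in Veh, and those for H3K4me1, Pol II and H3K4me3 somewhat deeper in GSK cells. The part of depth in the length of the lists was not tested. The lists ran from 2751 peaks for GSK H3K27ac to 40272 for GSK H3K4me1. As a check of the cell type, promoter H3K4me3 was present in both treatments at 6 of 6 CD8 T cell markers. It was absent at the 4 B cell and 2 NK cell markers, present at Cd14 alone of the 4 myeloid markers, and absent at Cd4 although present at Zbtb7b.

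NR4A, EGR and AP-1 genes are early response genes: a signal from the T cell receptor switches them on within minutes through factors that are already in the cell. NR4A proteins are orphan nuclear receptors, EGR proteins are zinc finger factors, and AP-1 is a dimer of FOS and JUN proteins; in T cells all of them shape activation, and NR4A and EGR factors are also known from tolerance and exhaustion. LSD1 takes methyl groups off mono- and dimethylated H3K4 (H3K4me1, H3K4me2), marks of enhancers and promoter flanks, whereas H3K4me3 marks active promoters and H3K27ac marks active promoters and enhancers.

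The promoter sequences that carried a motif match are shown first, since the members are themselves DNA-binding factors or targets of such factors. The 250 bases before each transcription start site (TSS) were searched on both strands for AP-1 (TGACTCA), CRE (TGACGTCA), NBRE (AAAGGTCA, the NR4A site), EGR (GCGTGGGCG or GCGGGGGCG) and the CArG box, the site of serum response factor. The members have 17 distinct TSSs. The 150 bases before the TSS are printed 5′ to 3′ on the strand of the gene, from the RefSeq GRCm38 (mm10) genome, and capitals mark the match. The Nr4a1 window is chr15:101266696-101266845 on the plus strand with an EGR match. The Fosl2 window is chr5:32136322-32136471 on the plus strand, also with an EGR match. The Nr4a2 window is chr2:57115039-57115188 on the minus strand, before the downstream of its 2 TSSs, with a CRE match. The Egr2 window is chr10:67537416-67537565 on the plus strand with a CArG box.
Nr4a1: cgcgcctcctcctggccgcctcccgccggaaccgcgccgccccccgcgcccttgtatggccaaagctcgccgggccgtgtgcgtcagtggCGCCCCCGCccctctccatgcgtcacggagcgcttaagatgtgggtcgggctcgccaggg
Fosl2: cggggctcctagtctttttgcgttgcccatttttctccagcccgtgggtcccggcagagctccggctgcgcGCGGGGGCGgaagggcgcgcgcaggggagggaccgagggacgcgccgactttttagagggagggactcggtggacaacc
Nr4a2: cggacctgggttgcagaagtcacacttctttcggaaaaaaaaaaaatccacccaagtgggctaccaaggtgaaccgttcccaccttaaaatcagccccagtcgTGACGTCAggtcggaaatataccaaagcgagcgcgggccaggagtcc
Egr2: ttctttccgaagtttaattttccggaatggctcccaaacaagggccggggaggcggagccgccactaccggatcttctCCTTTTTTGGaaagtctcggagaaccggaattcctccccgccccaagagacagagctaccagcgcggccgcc

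None of the 4 printed windows overlapped an exon of a curated transcript. A CArG box was found at 2 members, at Egr1 (2 matches, between −105 and −74 bp) and before 4 of the 6 Egr2 TSSs, beside 1.34% of the 31554 promoters of all genes. The EGR motif was found at 2 members, Nr4a1 and Fosl2, beside 3.96% of all promoters. CRE was found at Nr4a2 alone, beside 1.86%. No member held AP-1, which 4.09% of all promoters held, or NBRE, which 1.16% held, and no match overlapped a match to another motif. These are letter matches in a fixed window and say nothing of binding.

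Away from the promoters, 3 LSD1 sites are shown, each as 75 bases on either side of the Veh LSD1 summit on the plus strand of mm10. The first 2 are the strongest LSD1 sites in intergenic sequence by −log10 p, and the third is a site near Egr3 that held a motif and H3K27ac. The Nr4a1 site lies 20 kb before the gene at chr15:101246482-101246632 and the Fos site lies in intergenic sequence at chr12:85447234-85447384. The Egr3 site lies at chr14:70057121-70057271, within intron 6 of Pebp4, with an AP-1 match.
Nr4a1 distal: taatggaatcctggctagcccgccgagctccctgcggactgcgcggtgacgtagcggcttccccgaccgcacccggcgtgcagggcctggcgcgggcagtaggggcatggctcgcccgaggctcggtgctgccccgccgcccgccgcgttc
Fos distal: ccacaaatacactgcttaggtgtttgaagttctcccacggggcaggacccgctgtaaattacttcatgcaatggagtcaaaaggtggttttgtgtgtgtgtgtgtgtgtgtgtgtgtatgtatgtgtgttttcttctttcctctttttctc
Egr3 distal: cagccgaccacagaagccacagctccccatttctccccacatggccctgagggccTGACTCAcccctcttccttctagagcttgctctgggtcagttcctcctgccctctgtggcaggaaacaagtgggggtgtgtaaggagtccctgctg

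In 100 bp on either side of the summits of LSD1 peaks outside the members' promoters, AP-1 was found at 2 of 19 Veh sites and 3 of 23 GSK sites, beside 7.05% of all Veh and 4.96% of all GSK LSD1 peaks. The EGR motif was found at 0 of 19 Veh sites and 4 of 23 GSK sites, beside 1.82% and 3.01%. The GSK match at −1.88 kb from Egr3 was at a site with LSD1 in both treatments. The window around its Veh summit did not reach the match. The CArG box was found at 1 of 19 Veh sites and 1 of 23 GSK sites, beside 0.631% and 0.557%. Both matches belong to the Egr3 site at −11.21 kb in Veh. Neither CRE nor NBRE was found at any of the members' LSD1 sites.

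At the promoters, taken as 1 kb on either side of any TSS of the gene, LSD1 peaks were found at 5 of the 10 members under Veh and at all 10 under GSK. Nr4a2, Egr2, Fos, Fosl2 and Jun had one in both treatments. Nr4a1, Nr4a3, Egr1, Egr3 and Junb had one in GSK cells only, and no member had one in Veh cells only. Of all genes, 36.5% had a promoter LSD1 peak in Veh and 41.8% in GSK cells. A peak in GSK cells only was present at 9.78% of all genes and one in Veh cells only at 4.46%. Among genes with H3K4me3 at the promoter in both treatments, 69.5% had LSD1 in Veh and 79.0% in GSK cells, against 5 and 9 of the 9 such members. Of those genes without LSD1 in Veh cells, 54.7% had a LSD1 peak in GSK cells, so an appearance of LSD1 in the GSK list was common at such promoters. Egr3 had no H3K4me3 peak within 1 kb of its TSSs and is outside this comparison.

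**Figure D1:**
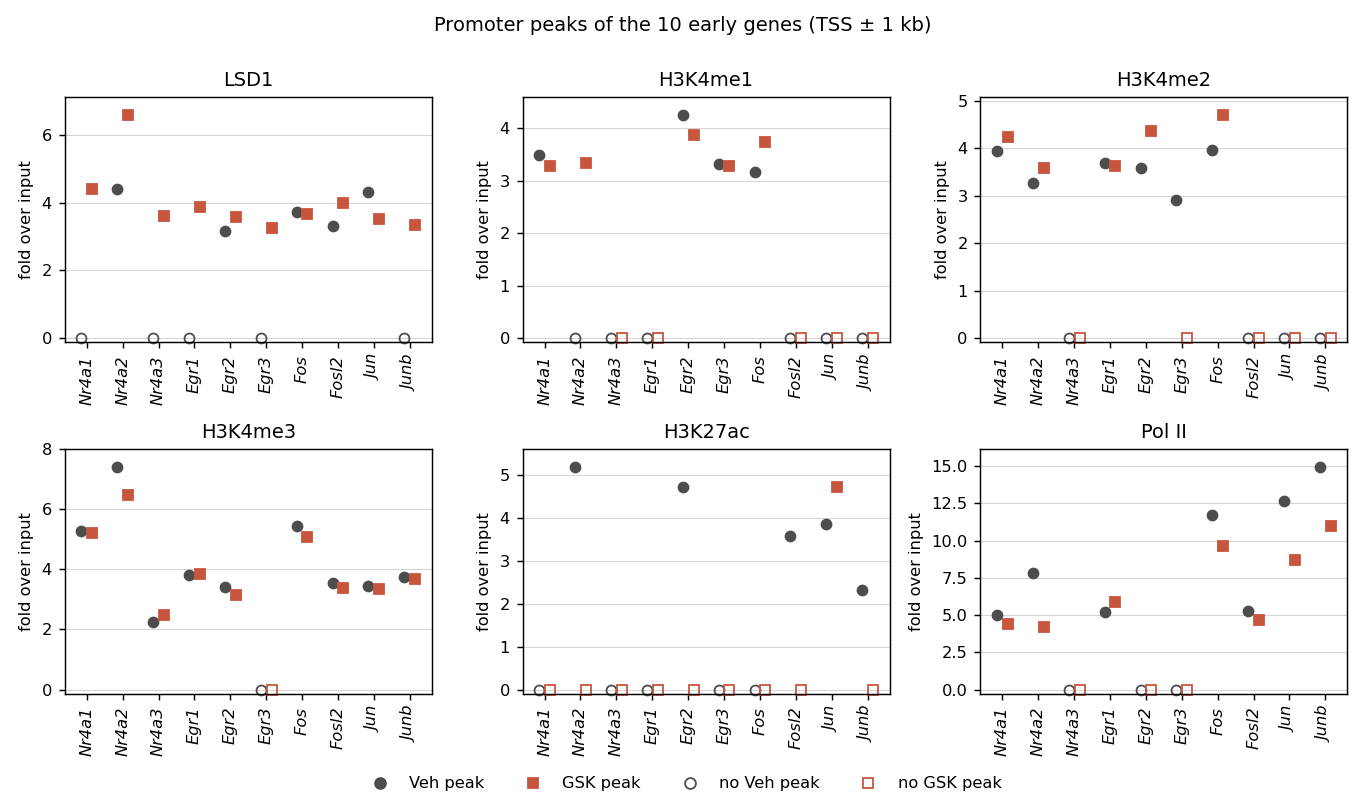
Highest fold enrichment over input of the promoter peaks (TSS ± 1 kb) of the 10 genes, 1 panel per antibody. Filled grey circles are Veh peaks, filled red squares GSK peaks, and open symbols at 0 mark promoters with no peak. LSD1 is open for 5 genes in Veh and for none in GSK, and H3K27ac is filled for 5 genes in Veh and for Jun alone in GSK.

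By fold, the LSD1 peaks found at member promoters in GSK cells only were in the lower part of their list. The LSD1 fold enrichment over input was 4.41 at Nr4a1, 3.60 at Nr4a3, 3.87 at Egr1, 3.26 at Egr3 and 3.33 at Junb, all in GSK cells, where Veh cells had no peak. These 5 folds stood between the 7.96 and the 48.3 percentile of the GSK LSD1 list. Their median fold was 3.60, beside 4.27 for the 2551 genes with promoter LSD1 in GSK cells only. Their median −log10 p, however, was 7.96, beside 6.45 for those 2551 genes, so by this measure they stood higher. The 5 values of −log10 p ran from 5.87 to 9.17, above the lowest values of 3.01 in both the Veh and the GSK LSD1 list. Enrichment under that limit was not measured, so a promoter without a Veh peak is not shown to lack LSD1. The nearest Veh LSD1 peak lay 8072 bp from the TSS of Nr4a1, 29387 bp from Nr4a3, 6531 bp from Egr1, 1358 bp from Egr3 and 8698 bp from Junb. At Egr3 it was thus just outside the window, and with a window of 2.5 kb Egr3 had LSD1 in both treatments.

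At the 5 promoters with LSD1 in both treatments the direction was mixed. At Nr4a2 the LSD1 fold was 4.40 in Veh and 6.60 in GSK cells, and its percentile in the list went from 56.1 to 88.6. At Fosl2 the fold was 3.30 in Veh and 4.01 in GSK cells, and at Egr2 it was 3.17 and 3.58. At Jun it was 4.33 in Veh and 3.53 in GSK cells, with the percentile going from 54.0 to 16.9, and at Fos it was 3.74 and 3.67. The fold was thus lower in GSK cells at 2 of 5 members, beside 27.8% of the 8348 genes with LSD1 in both. The median GSK over Veh ratio was 1.13 for the 5 members and 1.15 for all these genes. In level, however, the 5 members stood low, with a median percentile of 32.2 in Veh and 21.4 in GSK cells against 60.4 and 70.2 for all such genes.

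**Figure D2:**
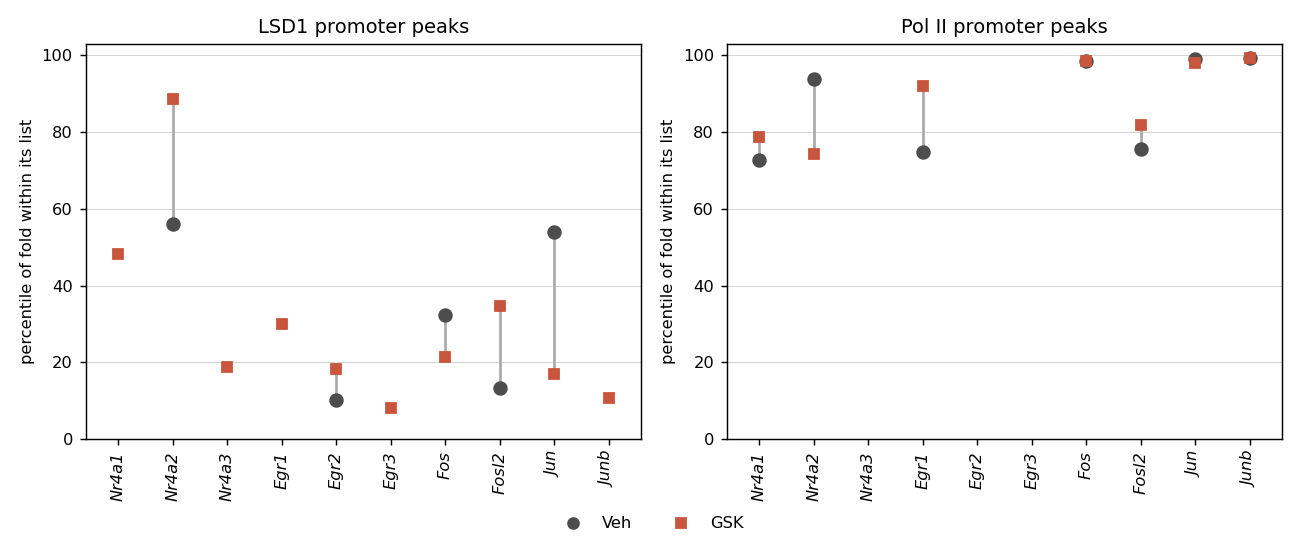
Percentile of the promoter fold enrichment within its own list for LSD1 (left) and Pol II (right), with Veh as grey circles and GSK as red squares, and a line joining treatments where both had a peak. LSD1 stands at or below the 56.1 percentile except for Nr4a2 in GSK cells, whereas the 7 genes with Pol II stand at the 72.7 percentile or above.

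Pol II was found at 7 member promoters, and the same 7 in both treatments: Nr4a1, Nr4a2, Egr1, Fos, Fosl2, Jun and Junb. Of all genes, 29.4% had promoter Pol II in Veh and 25.0% in GSK cells. The highest values were those of the AP-1 genes Junb, Jun and Fos. At Junb, which encodes a JUN family partner of FOS proteins, the Pol II fold was 15.0 in Veh and 11.0 in GSK cells. At Jun it was 12.7 in Veh and 8.73 in GSK cells. At Fos it was 11.7 in Veh and 9.64 in GSK cells. All 3 stood above the 98 percentile of the list in both treatments. The lower folds in GSK cells went with a lower median of the whole GSK list, 3.46 against 3.89, and these 3 genes stayed at the top of both lists.

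Nr4a2 and Egr1 moved within the list, in opposite directions. At Nr4a2 the Pol II fold was 7.80 in Veh and 4.17 in GSK cells, from the 93.8 to the 74.3 percentile. At Egr1 it was 5.20 in Veh and 5.86 in GSK cells, from the 74.9 to the 92.2 percentile, and it was the 1 member of the 7 with a higher fold in GSK cells. Nr4a1 (5.02 and 4.42) and Fosl2 (5.27 and 4.65) differed little between treatments. Over the 7 members the median GSK over Veh ratio of the Pol II fold was 0.822, beside 0.811 over the 5759 genes with Pol II in both. The fold was lower in GSK cells at 6 of 7 members and at 82.4% of those genes. The members' median percentile, 93.8 in Veh and 92.2 in GSK cells, was above the 81.4 and 81.2 of all genes with Pol II in both.

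Promoter H3K4me3 was present at 9 of 10 members in both treatments, beside 50.2% of all genes in Veh and 51.3% in GSK cells. Egr3 was the exception within 1 kb, and with a window of 2.5 kb all 10 members had it in both treatments. The H3K4me3 domains were wide. Their summed width had a median of 2388 bp in Veh and 2374 bp in GSK cells, beside 1271 and 1252 bp for all marked genes. At Nr4a3 the width was 5042 bp in Veh and 3859 bp in GSK cells, the 99.9 and the 99.5 percentile. At Nr4a2 it was 4005 bp in Veh and 4291 bp in GSK cells. At Jun it was 3012 and 3011 bp. Nr4a1, with 1190 and 1183 bp, and Fos, with 1304 and 1444 bp, were the 2 genes near the middle of all genes. The fold of these regions was low, with a median percentile of 8.56 in Veh and 7.64 in GSK cells, where MACS2 averages the fold of a broad region over its length. It was highest at Nr4a2, 7.42 in Veh and 6.48 in GSK cells. There it belongs to 1 of 2 peaks, of 1155 bp in Veh and 1392 bp in GSK cells, and not to the summed width. The H3K4me3 fold was lowest at Nr4a3, the gene with the widest Veh domain, 2.25 in Veh and 2.5 in GSK cells. The H3K4me3 fold was lower in GSK cells at 7 of 9 members, all but Nr4a3 and Egr1. Of the 12997 genes with H3K4me3 in both, 40.7% had a lower fold in GSK cells. The median GSK over Veh ratio was 0.971 for the members and 1.015 for all these genes. The members' median change in percentile was −0.923 by fold and 0.307 when ranked by −log10 p, so its sign depended on the measure.

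**Figure D3:**
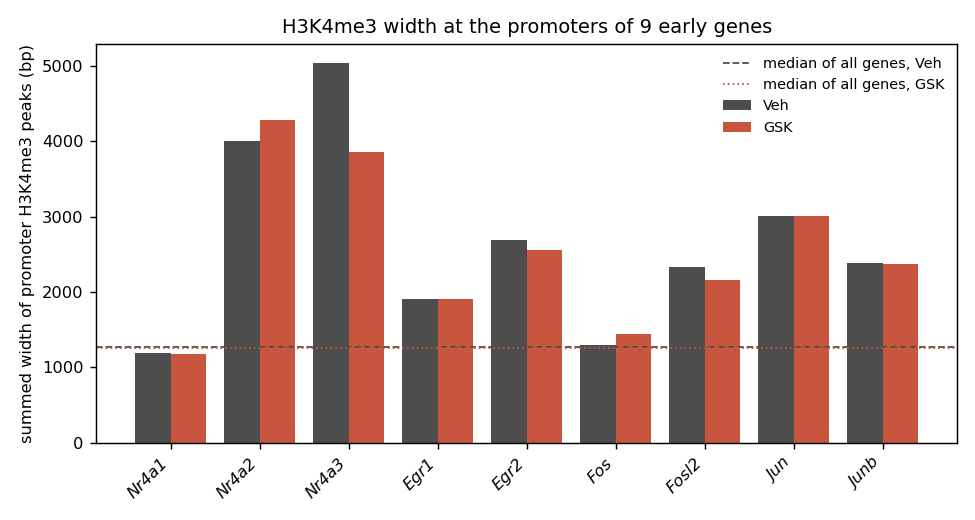
Summed width in bp of the H3K4me3 peaks that overlap the promoters of the 9 members with one, in Veh (grey) and GSK (red) cells. The lines give the median of all genes with promoter H3K4me3, 1271 bp in Veh and 1252 bp in GSK cells; Nr4a1 and Fos are the bars near these lines.

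H3K27ac was found at 5 member promoters in Veh and at 1 in GSK cells. In Veh cells the H3K27ac fold was 5.19 at Nr4a2, 4.72 at Egr2, 3.85 at Jun, 3.58 at Fosl2 and 2.32 at Junb. In GSK cells only Jun had a peak, with a fold of 4.71. Of all genes, 20.6% had promoter H3K27ac in Veh and 8.61% in GSK cells, and 12.3% in Veh cells only. Of the genes marked in Veh cells, 59.8% had no peak in GSK cells, against 4 of 5 members. With both lists shortened to the 2751 strongest peaks by −log10 p, 2 members in Veh (Jun and Nr4a2) and 1 in GSK cells had a peak. The Veh count of 5 thus depended on the length of the list, and the Veh H3K27ac library was the much deeper one.

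H3K4me1 at promoters was found at 4 members in Veh (Nr4a1, Egr2, Egr3, Fos) and at these and Nr4a2 in GSK cells, beside 30.4% and 36.9% of all genes. The H3K4me1 fold at Nr4a2 was 3.35 in GSK cells, with no Veh peak. At Fos it was 3.17 in Veh and 3.74 in GSK cells. At Egr2 it was 4.26 in Veh and 3.87 in GSK cells, at Nr4a1 3.49 and 3.28, and at Egr3 3.31 and 3.28. The 4 members with H3K4me1 in both treatments thus moved in both directions. H3K4me2 was found at 6 members in Veh and 5 in GSK cells, with Egr3 (fold 2.90 in Veh) the one without a GSK peak. Of all genes, 39.2% and 28.3% had promoter H3K4me2. At the other 5 the H3K4me2 fold was 3.58 in Veh and 4.37 in GSK cells at Egr2, 3.97 and 4.71 at Fos, 3.94 and 4.25 at Nr4a1, 3.28 and 3.59 at Nr4a2, and 3.70 and 3.63 at Egr1, so it was higher in GSK cells at 4 of 5. The H3K4me2 fold was lower in GSK cells at 1 of these 5 members, beside 40.5% of the 6867 genes with H3K4me2 in both treatments. The median GSK over Veh ratio was 1.10 for the 5 members and 1.03 for all these genes. In percentile within the list, 3 of the 5 members were lower in GSK cells, beside 62.0% of those genes. None of the AP-1 genes Fosl2, Jun and Junb had H3K4me1 or H3K4me2 within 1 kb of the TSS. With a window of 2.5 kb, Junb had H3K4me1 in both treatments and Jun had it in GSK cells only. Jun and Junb then also had H3K4me2 in Veh cells only, and Fosl2 still had neither mark.

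Outside the members' own promoters, LSD1 peaks numbered 19 in Veh and 23 in GSK cells, and 16 of the 19 Veh peaks (84.2%, Wilson 95% interval 62.4 to 94.5) were overlapped by a GSK peak. Over all Veh LSD1 peaks away from every promoter this share was 34.9%, while the members' sites include those at promoters of neighbouring genes. The GSK to Veh ratio of peak numbers was 1.21 around the members and 0.795 over all peaks away from promoters. With peaks in any gene's promoter left out, the members' share was 80.0% and their ratio 1.27. Intervals here cover counting error only, and sites of 1 gene are not independent. Many of these sites carried H3K4me3, which went with a higher share over all peaks as well. Of sites away from every gene's promoter, 9 of 9 with H3K4me3 had a GSK LSD1 peak (interval from 70.1%), beside 64.3% of all such sites, just below that interval. Of those without H3K4me3, 3 of 6 did (18.8 to 81.2%), beside 27.5%, so for these the interval held the background. This split was added after the data were seen.

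**Figure D4:**
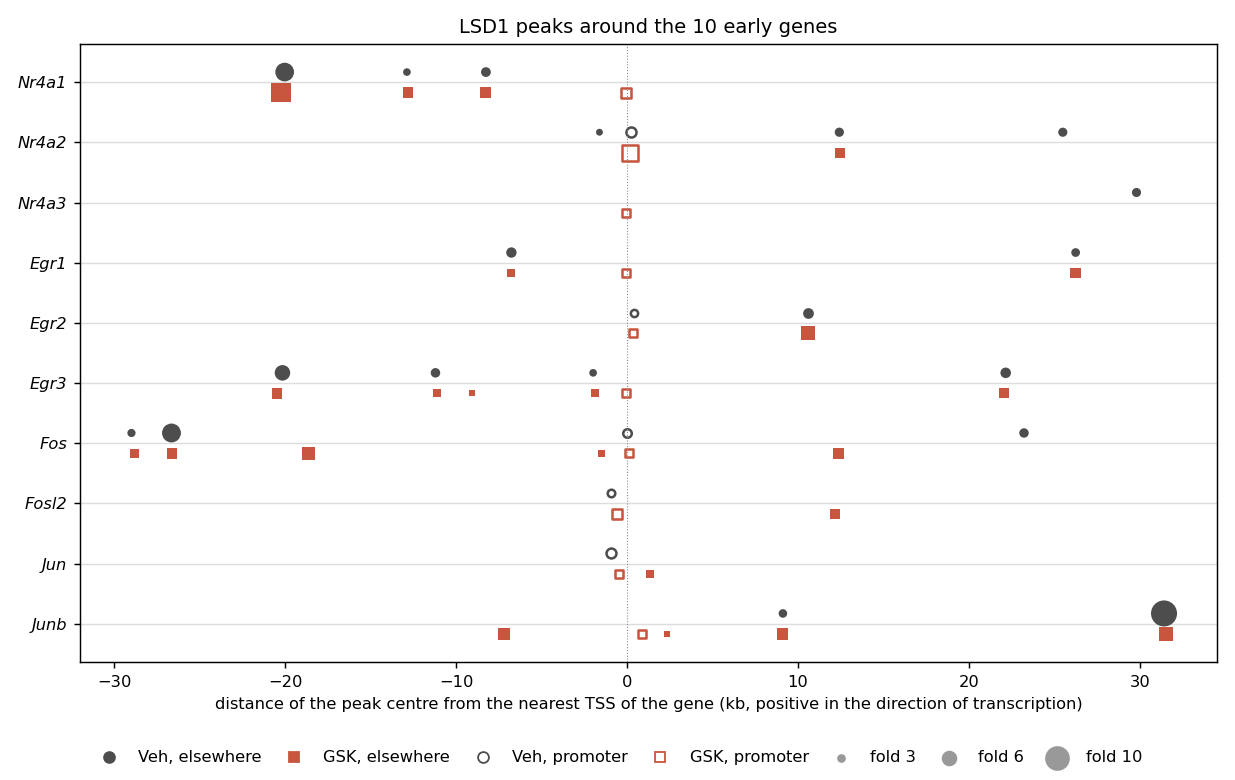
LSD1 peaks by the distance of their centre from the nearest TSS of the gene (kb, positive in the direction of transcription), with Veh as grey circles above and GSK as red squares below each line. Symbol area grows with fold enrichment and open symbols are promoter peaks; Nr4a3 has no LSD1 site in common between treatments, and the largest symbol is the Veh peak at 31.4 kb from Junb.

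The strongest LSD1 sites were present in both treatments, and distances below are from the nearest TSS of the member with negative values upstream. The highest −log10 p, 35.6 in Veh cells, was that of a peak at 31.4 kb from Junb (chr8:84947089-84947606), which lies in the promoter and intron 1 of Rtbdn, a neighbouring gene. Its LSD1 fold was 11.4 in Veh and 6.22 in GSK cells. At Fos an intergenic site at −26.6 kb (chr12:85446884-85447604 in Veh) had a fold of 8.27 in Veh and 4.51 in GSK cells, and it overlapped no peak of another antibody. At Nr4a1 an intergenic site at −20.0 kb (chr15:101246343-101247288 in Veh) had a fold of 8.20 in Veh and 8.41 in GSK cells. The Nr4a1 site also carried H3K4me1, H3K4me2, H3K4me3 and Pol II in both treatments. Only at Nr4a1, of these 3 sites, was the fold about the same in both treatments.

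Sites with LSD1 in 1 treatment only were few and of moderate fold. LSD1 in Veh cells only was found at 29.8 kb from Nr4a3 in its intron 7 (chr4:48074692-48075413, fold 3.99), at 23.2 kb from Fos (fold 4.14) and at 25.5 kb from Nr4a2 (fold 4.0). These were the only Veh-only sites elsewhere. LSD1 in GSK cells only was strongest at −7.21 kb from Junb (chr8:84985626-84986299, fold 4.98), at −18.7 kb from Fos (fold 5.62) and at 12.4 kb from Fos (fold 4.99). The other 4 GSK-only sites had folds from 2.74 to 4.45 and lay near Fosl2, Junb, Fos and Egr3. H3K4me3 overlapped 4 of the 7 GSK-only sites, in both treatments, and none of the 3 Veh-only sites.

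Pol II peaks outside the members' own promoters numbered 18 in Veh and 10 in GSK cells, a ratio of 0.556 beside 1.1 over all Pol II peaks away from promoters. Of the 18 Veh peaks, 8 (44.4%, 24.6 to 66.3) had a GSK peak, beside 14.3% of all Veh Pol II peaks away from promoters. Of these Veh peaks, 7 lay in the crowded neighbourhood of Junb and 4 near Egr3. The members' Pol II peaks include those at promoters of neighbouring genes, which the whole-list values leave out. With peaks in any gene's promoter left out, the members' ratio was 0.667 and their share with a GSK peak 50.0%. Away from every promoter, 6 of 9 Pol II sites with H3K4me3 had a GSK peak (35.4 to 87.9%), beside 54.7% of all such sites. Without H3K4me3 it was 0 of 3 (up to 56.1%), beside 4.92%. Both intervals held the share of other sites with the same H3K4me3 state.

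Nr4a3, which had no Pol II within 1 kb of its TSS, had a peak at −2.30 kb (chr4:48042796-48043222) with a fold of 7.56 in Veh and 5.89 in GSK cells. Near Egr3 a Pol II peak at −20.3 kb had a fold of 8.35 in Veh and 6.31 in GSK cells. A peak at 17.5 kb from Nr4a1, in the promoter of Atg101, had a fold of 7.33 in Veh and 5.62 in GSK cells. These were the strongest sites with Pol II in both treatments, and all were lower in fold in GSK cells. Pol II in Veh cells only was strongest at −11.3 kb from Egr3 (fold 6.22), then at the Hook2 promoter (4.42) and the Prdx2 promoter (4.18) near Junb. In GSK cells only there were 2 peaks, at −5.54 kb from Egr1 (fold 3.06) and at −6.50 kb from Junb (2.81).

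H3K27ac peaks outside the promoters numbered 11 in Veh and 3 in GSK cells, and the 3 GSK peaks each overlapped a Veh peak. This was 3 of 11 (27.3%, 9.75 to 56.6), beside 29.1% of all Veh H3K27ac peaks away from promoters, with the same difference in depth. The kept sites were at −5.35 kb from Egr1 (fold 4.17 in Veh and 4.69 in GSK cells) and at −11.03 kb (5.23 and 5.06) and −20.5 kb (4.33 and 4.38) from Egr3. The −20.5 kb site lies in an intron of Pebp4. The strongest Veh-only sites were at 17.3 kb from Nr4a1 in the Atg101 promoter (fold 6.88), at −1.88 kb from Nr4a3 (3.89) and at 11.01 kb from Egr2 in the promoter of Ado (4.40). The H3K27ac site at 29.9 kb from Nr4a3, in intron 7, had a fold of 3.50 in Veh cells only. There LSD1 and H3K4me2 were also found in Veh cells only. A Veh H3K4me1 peak (chr4:48072512-48077249) covered the whole H3K27ac peak (chr4:48074677-48075777). In GSK cells the H3K4me1 peaks there were chr4:48072513-48074730 and chr4:48075824-48077318. Only the first of these reached the edge of the H3K27ac peak, and most of it had no GSK H3K4me1 peak.

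Of the other marks, H3K4me2 numbered 23 peaks in Veh and 13 in GSK cells outside the members' promoters, with 13 of 23 (56.5%, 36.8 to 74.4) overlapped, beside 38.8% of all. H3K4me1 numbered 42 and 47, with 36 of 42 (85.7%, 72.2 to 93.3) overlapped, beside 87.7%. H3K4me3 numbered 22 and 21, with 21 of 22 (95.5%, 78.2 to 99.2) overlapped, beside 92.0%. For these 3 marks the share over all peaks lay inside the interval of the members. The members' shares again include peaks at promoters of neighbouring genes. With peaks in any gene's promoter left out, they were 56.25% for H3K4me2, 88.2% for H3K4me1, 93.3% for H3K4me3 and 33.3% for H3K27ac.

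**Figure D5:**
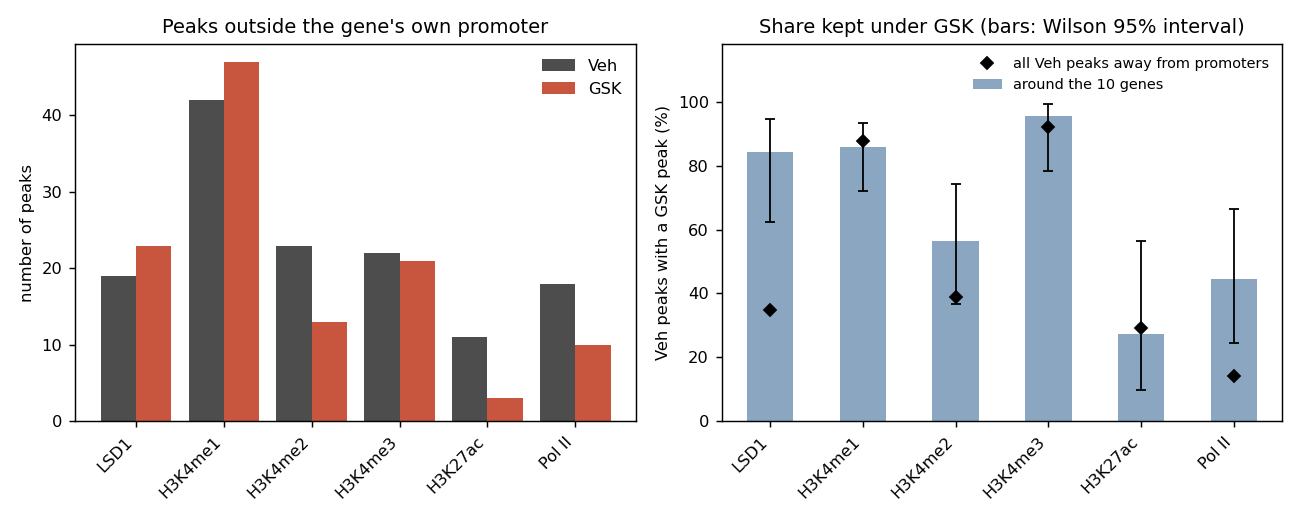
Left, number of peaks around the 10 genes outside their own promoters for each antibody in Veh (grey) and GSK (red) cells. Right, share of these Veh peaks overlapped by a GSK peak in percent with Wilson 95% intervals, and as diamonds the same share over all Veh peaks away from promoters; the diamond lies below the interval for LSD1 (34.9%) and Pol II (14.3%) and inside it for the other 4.

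By family, the NR4A genes were not alike in their LSD1 sites, and within 1 kb of the TSS Nr4a3 differed most in its promoter marks. Nr4a1 (chr15:101266846-101274795) had LSD1 at 3 distal sites in both treatments, and at the promoter in GSK cells only. One of the 3, at −12.9 kb in Veh, lies at an upstream Nr4a1 start in the GENCODE M21 annotation that curated RefSeq transcripts do not hold. It carried H3K4me2 and H3K4me3 in both treatments, and with GENCODE starts Nr4a1 had promoter LSD1 in both. With the same starts Egr2 had promoter LSD1 in neither treatment, so that 9 members rather than 10 had it in GSK cells. Nr4a2 (chr2:57107226-57124003) had LSD1 at 3 sites elsewhere in Veh and 1 in GSK cells, with the GSK peak at its promoter reaching over the Veh site at −1.62 kb. Nr4a3 (chr4:48045305-48086446) had the fewest promoter marks, with H3K4me3 in both treatments and LSD1 in GSK cells and nothing else within 1 kb of its TSS. With a window of 2.5 kb, Nr4a3 also had H3K4me1, H3K4me2 and Pol II in both treatments and H3K27ac in Veh cells. Its sparse promoter thus rests on the narrower window.

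Among the EGR genes, Egr3 had the richest surroundings and, within 1 kb of its TSSs, the emptiest promoter. Egr3 (chr14:70077317-70082613) had 4 LSD1 sites elsewhere in Veh and 5 in GSK cells, while its promoter held H3K4me1 in both treatments, H3K4me2 in Veh and LSD1 in GSK cells. With a window of 2.5 kb, Egr3 had LSD1, H3K4me1, H3K4me2 and H3K4me3 in both treatments, so the empty promoter rests on the narrower window. At −20.2 kb the LSD1 fold was 6.80 in Veh and 4.73 in GSK cells. At −11.2 kb it was 4.17 in Veh and 3.39 in GSK cells. The first of these is the Egr3 site whose sequence is printed above. Each overlapped a H3K27ac peak and a H3K4me3 peak that had counterparts in GSK cells, while Pol II was in both treatments at the first and in Veh cells only at the second. The first lies at a start of the noncoding gene Gm33524 in GENCODE M21. At Egr2 (chr10:67535499-67542188) the elsewhere LSD1 site was the Ado promoter, with a fold of 4.72 in Veh and 5.93 in GSK cells. At Egr1 (chr18:34861207-34864956) a site at −6.77 kb had a LSD1 fold of 4.55 in Veh and 3.60 in GSK cells.

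Among the AP-1 genes, Fosl2 and Jun had few LSD1 sites around them and Fos and Junb several. Fos (chr12:85473890-85477274) had 3 in Veh and 5 in GSK cells, and Junb (chr8:84976909-84978748), with 4 neighbouring genes in its window, had 2 and 4. Fosl2 (chr5:32136472-32157840) and Jun (chr4:95049036-95052222) had 0 in Veh and 1 in GSK cells each. At Jun, the GSK site at 1.33 kb lay in the coding exon. It overlapped the lower in fold of the 2 Veh peaks that reached into the promoter window.

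Enhancers were rebuilt here, following the wording of the study's definition, and need not be the study's own set. Merged from H3K4me1 and H3K4me2 peaks without H3K4me3 and more than 2.5 kb from a TSS, they numbered 25 in the members' windows of 26676 in all. Of the 25, 16 had H3K4me1 under both treatments, 3 under Veh alone and 6 under GSK alone, beside 9.87% in Veh only and 22.5% in GSK only over all enhancers. The members' 3 and 6 of 25 were near these shares. LSD1 was found at 4 of the 25 in Veh and 3 in GSK cells, beside 17.5% and 12% of all enhancers. The Veh-only H3K4me1 enhancers were at 26.1 kb (fold 4.64) and 16.7 kb (4.48) from Jun and at 3.24 kb from Nr4a2 (2.89). The strongest GSK-only ones were at 40.3 kb from Fosl2 (4.66), −23.8 kb from Jun (4.62) and 33.1 kb from Egr3 in intron 1 of Bin3 (4.61). Jun had both kinds, with 2 in Veh only and 2 in GSK only among its 5. Of the 10 genes only Egr2 had no enhancer by this definition.

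The 30 other early genes, chosen as AP-1 and EGR kin, upstream factors and further early response genes, had about as many LSD1 promoters in either treatment. LSD1 marked 23 of these promoters in Veh and 21 in GSK cells, with 5 specific to the Veh list and 3 to the GSK list. The Veh-only promoters were those of Fosb (fold 3.01) and Batf (3.45), AP-1 kin, of Ier3 (3.85) and Klf6 (3.12), and of Myc (2.61), the growth regulator. The GSK-only promoters were those of Mafk (5.40), Ier2 (3.08) and Dusp2 (4.17), a phosphatase of MAP kinases. Pol II was found at 19 in Veh and 20 in GSK cells. It was in Veh cells only at Nab2, an EGR corepressor (fold 4.14), and at Nfatc2, a factor downstream of calcium signals (4.61). It was in GSK cells only at Fosb (5.06), Jund (8.32) and Maff (3.43). Promoter H3K4me3 was found at 28 of 30 in both treatments, with Jund and Wt1 the exceptions, and H3K27ac at 16 in Veh and 6 in GSK cells. H3K4me1 was found at 15 and 19 and H3K4me2 at 16 and 12. The difference between the LSD1 counts of the 10 members and the 30 other genes was not tested.

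Over the 12 lists, promoter profiles were set side by side as log2(fold + 1), with 0 for no peak, and Euclidean distance as the measure of likeness. The closest pair of members was Nr4a1 and Fos (2.69), followed by Fosl2 and Junb (2.77), and the farthest was Egr3 and Jun (8.01). Every member had genes outside the group closer to it than any member was. With 10 members among 26089 genes this was to be foreseen, and it says little of how alike the members are. The nearest to Nr4a1 were Rin3 (0.388) and Fbrsl1 (0.522), to Nr4a2 Zfp213 (0.673) and Rabgef1 (0.729), and to Nr4a3 Gm4221 (0.176) and Gata3 (0.451), the last a T cell transcription factor. The nearest to Egr1 were Nup88 and Rpain (0.801 each), to Egr2 Cd86 (0.709), a costimulatory ligand, and Cd3eap (0.728), and to Egr3 Ankrd34a (0.180) and Foxf2 (0.309). The nearest to Fos were Atp1b2 (0.677) and Ppp1r3b (0.773), to Fosl2 Enoph1 and Hnrnpdl (0.240 each), to Jun Setd5 (0.289) and Gt(ROSA)26Sor (0.341), and to Junb Gbp4 (0.815) and Eef2 (1.02). The same 12-list pattern of present and absent peaks as Jun was shared by 1.45% of the other genes, and that of Egr1 by 0.073%.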

How the data were processed

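ChIP-seq was analysed for 12 libraries, 1 for each of 6 antibodies in Veh and GSK cells, and the 4 input samples, which have no peak list, were not analysed here. Per the study's methods, unique alignments to mm10 came from Bowtie2, Samtools took out duplicates, and MACS2 peaks were made library by library against input, with 0.001 as the stated p limit. The deposited columns give each peak's fold over local background (a ratio), −log10 p, −log10 q and a score, which was not used. The lowest −log10 q was 3.01 to 3.03 in the histone lists and 0.523 to 0.787 in the LSD1 and Pol II lists.

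Promoters were 1 kb on either side of 31554 TSSs of curated RefSeq transcripts (GRCm38.p6). A peak counted at 1 bp of overlap, and a promoter took the highest fold of its peaks. Percentiles are within a list, over peaks. Shares of peaks carry Wilson 95% intervals. Values were computed with Python and pandas, and overlap and motif functions were tested on simulated peaks and sequences. The members, gene lists and naming rules were chosen with earlier results of these data known: all members were named, with up to 3 sites elsewhere per state by −log10 p for LSD1, H3K27ac and Pol II, enhancers with H3K4me1 in 1 treatment by fold, other early genes with LSD1 or Pol II in 1 treatment, and the 2 nearest genes per member. Alternatives were equal list lengths, −log10 q of at least 3, other windows, flanks and overlaps, ranking by −log10 p and GENCODE M21 starts. One sequence and its motif match are not reported here.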

Additional observations from a re-analysis of the deposited data

How the results depend on the processing

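With 1 library for each antibody and treatment, no spread to measure and depths that differed, most for H3K27ac, all values describe these libraries, and a peak missing from a list may lie just under its threshold. No paired analysis was possible because the replicate numbers in the labels belong to the input samples, which carry no peak list. Of 149 alternative values of 37 results, 139 moved by at most 1.5 times (counts) or by less than the interval or spread of the value. With lists of equal length, members with promoter H3K27ac in Veh went from 5 to 2, the H3K27ac rank change of Jun from −8.49 to 22.0 percentile points, and Veh-only H3K4me1 enhancers from 3 to 7. With a promoter window of 2.5 kb, members with H3K4me1 in GSK cells went from 5 to 8, and in Veh cells those with H3K4me1 from 4 to 6 and those with H3K4me2 from 6 to 9. With a flank of 10 kb, the share of H3K4me3 peaks elsewhere with a GSK peak went from 95.5 to 100%. Ranked by −log10 p, the median H3K4me2 rank change of members went from −1.93 to −13.1, and with equal lists it was 6.28, of opposite sign. Splits by H3K4me3 and GENCODE starts were chosen after seeing the data. The splits gave shares of 100% and 50% for LSD1 and 66.7% and 0% for Pol II with and without H3K4me3, in place of 84.2% and 44.4%. Promoter LSD1 in GSK cells only was found at 5 members with equal lists, at 5 with −log10 q of at least 3 (Egr2 in place of Egr3) and at 4 with the wider window or with GENCODE starts. In these 4 settings no member had it in Veh cells only.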
